A study of Columba livia with 19 samples.

Results

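Transcripts with low counts in the growing feathers of recessive red pigeons are described here, a set of 39 genes of the 15392 counted in the feather collar of the domestic rock pigeon (Columba livia). The set was chosen on the readout itself. A gene entered it when its mean level in recessive red birds was at least 1.5 log2 units below the mean of wild-type birds in each of 2 batches, and when its wild-type mean reached 1 CPM in each batch. CPM is a gene's count per 1000000 counts of the bird's total, and 0.5 CPM was added to each mean before the logarithm. Of the 15392 genes, 11752 reached the wild-type level, and a further 60 genes met the fold threshold in only 1 batch. The rule used 18 of the 19 birds, and the values that chose the set are given as a description. Fits to that same contrast are mentioned only as counts, which the choice of the genes fixes.

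The birds fall into 6 groups by batch and genotype. Batch 1, sequenced in 2017, holds 4 wild-type birds (birds 1 to 4) and 3 recessive red e1 homozygotes (birds 1, 3 and 4). Batch 2, collected in 2020, holds 5 wild-type birds (00, 20, 21, 23 and 24), 3 recessive red e1 homozygotes (6, 11 and 12), 3 recessive red e2 homozygotes (5, 7 and 14), and bird 22, a wild-type-coloured carrier with 1 wild-type and 1 e1 allele. Each bird is 1 library. The labels give no age, sex or breed, and no treatment beyond the plucking that all birds share: secondary flight feathers regrew for 9 to 10 days, the proximal 4 to 5 mm was taken, and the dermal pulp was removed. Total counts were 13559606 to 23168538 per bird, and 14107 to 14385 genes had at least 1 count.

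The collar is the ring of proliferating epidermis at the base of a growing feather, and in it melanocytes pass melanosomes to the keratinocytes that form the barbs. Wild-type melanocytes make black to brown eumelanin, and recessive red plumage is coloured by red to yellow pheomelanin. The e1 and e2 alleles are known as overlapping deletions upstream of SOX10, which encodes a transcription factor of the neural crest that acts early in melanocytes and upstream of pigment enzyme genes. The counts carry gene identifiers and no names, and 0 of the identifiers, those of the 39 genes included, matched a table of 22830 named pigeon genes. SOX10, the pigment pathway and the markers of melanocytes, keratinocytes, dermis, blood and endothelium were therefore not examined, the labelled tissue could not be checked against its markers, and no role is given to any identifier below. The genes are ordered by their counts and by how much was left in recessive red birds. Fewer cells of a type and less RNA per cell cannot be told apart in these bulk samples, for any gene of the set.

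Above the rule's floor of 1 CPM, the chosen genes spanned a wide range of levels. A single transcript carried nearly as many counts in wild-type birds as the rest of the set together. Wild-type means ran from 1.48 to 6145 CPM in 2017 and from 2.09 to 6036 CPM in 2020. Averaged over the batches, 4 genes were at 1000 CPM or above, 6 between 100 and 1000, 20 between 10 and 100, and 9 between 1 and 10. CPM is not divided by gene length, so these are levels of counts and not of transcript molecules. The 39 genes took 1.28% ± 0.265 (SD, n = 4) of all counts in 2017 wild-type birds and 1.26% ± 0.53 (SD, n = 5) in 2020 wild-type birds. In recessive red birds they took 0.0768% ± 0.0291 (SD, n = 3) in 2017, and 0.128% ± 0.0119 (SD, n = 3) in the e1 birds of 2020. The e2 birds stood at 0.208% ± 0.0307 (SD, n = 3). A306_00007909 made up 47.8% of the set's counts in 2017 wild-type birds and 48.0% in 2020 wild-type birds. In recessive red birds it made up 0.185% and 0.497% of them.

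**Figure D1:**
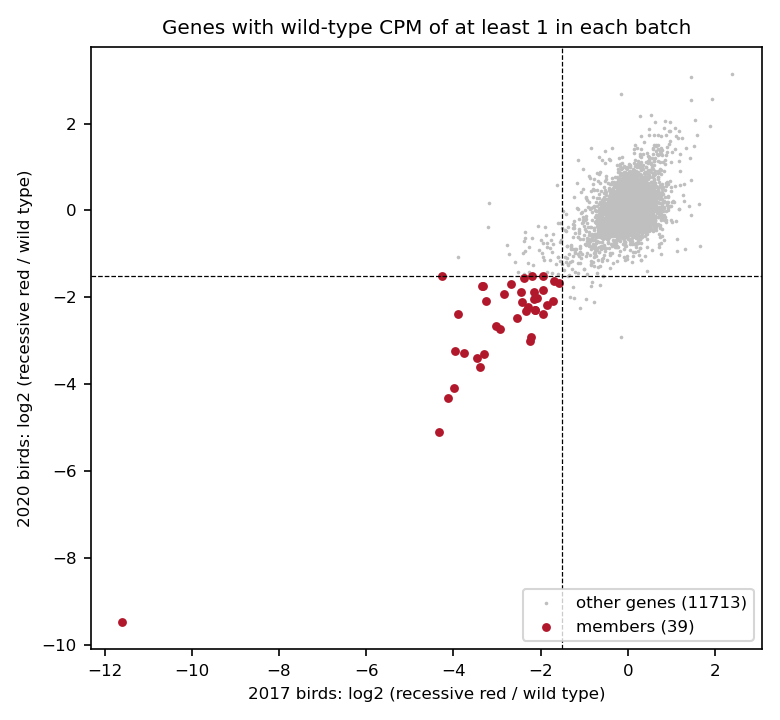
Each point is a gene with a wild-type mean of at least 1 CPM in each batch, placed by its log2 difference of recessive red from wild type in 2017 (horizontal axis) and in 2020 (vertical axis). Lines mark the threshold of -1.5 that chose the 39 genes, which lie in the lower left corner; apart from the rest, A306_00007909 lies at -11.61 and -9.47.

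The log2 differences that chose the set had a median of -2.45 (range -11.61 to -1.59) in 2017 and of -2.22 (range -9.47 to -1.5) in 2020. Over all 11752 genes the medians were 0.07 and -0.02. Recessive red birds kept a median of 11% of the wild-type mean CPM in 2017 (range 0% to 30.3%) and of 18.1% in 2020 (range 0.132% to 35.3%). Under 10% was left of 16 genes in 2017 and of 12 genes in 2020. In 26 of the 39 genes the 2017 difference was the more negative. The levels of recessive red birds all lay under those of wild-type birds for 33 genes in 2017, 29 in 2020 and 28 in each batch, where 3.28%, 1.75% and 0.766% of the 11752 genes had such a separation. The rule used this contrast, so nothing is read from those counts. A fit of all birds with the batch as a term (edgeR) is no test of the set either, since it takes the same contrast in the same birds: 39 of 39 were lower at an adjusted p under 0.05, beside 2.58% of the 12839 genes fitted. With the 2017 birds alone, 21 of 38 were, beside 58 of the 12693 genes fitted. The authors' deposited table lists all 39 as lower at an adjusted p under 0.05, with log2 fold changes of -10.34 to -1.71, and 3.32% of its genes with an adjusted p are lower in that way. That table was deposited with these same counts and is no separate support. Its model was not given, and its direction, recessive red against wild type, was read from its signs against the counts.

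A306_00007909 stood 4th of all genes by mean wild-type CPM in each batch. Its level was 7187, 5066, 5159 and 7170 CPM in 2017 wild-type birds 1 to 4, and 0.921, 1.38 and 2.11 CPM in the recessive red birds of that year. In 2020 it was 2940, 8071, 8498, 5450 and 5220 CPM in wild-type birds 00, 20, 21, 23 and 24. It was 7.06, 3.38 and 7.89 CPM in the e1 birds and 3.26, 3.30 and 23.1 CPM in the e2 birds. Every recessive red bird was thus more than 100 times below every wild-type bird of its batch, with counts above 0 in all 9 recessive red birds. The authors' deposited table gives it a log2 fold change of -10.34.

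A group of 8 further genes was also at least 3 log2 units lower in both batches, and they differed in level. A306_00005498 was at 101 to 182 CPM in 2017 wild-type birds and at 6.94, 9.41 and 7.37 CPM in recessive red birds. In 2020 it was at 114 to 211 CPM in wild-type birds, at 5.85, 8.65 and 8.41 CPM in e1 and at 9.67, 7.91 and 7.88 CPM in e2 birds. Its 9 recessive red values lay within 5.85 to 9.67 CPM, with the alleles and batches interspersed. A306_00005524 was at 94.9 to 151 CPM in 2017 wild-type birds and at 3.74, 11.4 and 5.63 CPM in recessive red birds. In 2020 it was at 78.1 to 209 CPM in wild-type, at 22.8, 15.0 and 2.88 CPM in e1 and at 9.67, 18.7 and 10.5 CPM in e2 birds. No recessive red bird reached the lowest wild-type bird of its batch, but the e1 birds of 2020 were more scattered than those of A306_00005498. A306_00001667 was at 36.2 to 76.5 CPM in 2017 wild-type birds against 3.63, 3.63 and 5.42 CPM in recessive red birds. Its 2020 levels were 88.6 to 183 CPM in wild-type, 6.83, 7.09 and 14 CPM in e1 and 5.19, 19.2 and 23.5 CPM in e2 birds.

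The other 5 of these genes had lower wild-type levels in most birds, and were near 0 in recessive red birds with 1 exception. A306_00006269 ranged from 3.11 to 23.9 CPM in 2017 wild-type birds and from 3.63 to 39.3 CPM in 2020 wild-type birds, and no recessive red bird exceeded 0.345 CPM. A306_00002019 ranged from 5.37 to 19.5 and from 6.58 to 16.1 CPM in wild-type birds, with a highest recessive red value of 0.405 CPM. A306_00001524 ranged from 2.52 to 8.02 and from 3.34 to 7.17 CPM, with a highest recessive red value of 0.216 CPM. The groups were apart for these 3 genes in each batch. A306_00015279 had 1 count over the 3 recessive red birds of 2017, against 354 counts over the 4 wild-type birds, a ratio of 278 (95% counting interval 49.5 to 10998). In 2020 it had 3 counts over the e1 birds against 500 in the wild-type birds, a ratio of 92.8 (31.6 to 451). Over the e2 birds it had 0 counts, which puts it at least 107-fold lower, with 3 counts over the group as the floor. A306_00013892 is the exception, with 0.777 to 9.45 CPM in recessive red birds. It is described below, since its wild-type level in 2020 rests on 1 bird.

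A306_00002053 was the other gene with at most 3 counts in a recessive red group. It had 0 counts over the 3 birds of 2017 against 141 in wild-type birds, at least 36.9-fold lower with 3 counts over the group as the floor. In 2020 it had 3 counts in e1 birds against 305 in wild-type birds, a ratio of 56.6 (95% counting interval 19.2 to 276), and 2 counts in e2 birds, a ratio of 97.8 (26.8 to 811). These intervals cover counting error only. Its wild-type birds were at 0.772 to 3.17 CPM in 2017 and at 1.07 to 7.97 CPM in 2020. The 0.5 CPM added to each mean limits its log2 differences, which were -2.22 and -2.92, short of -3. The same limit holds for other genes with low wild-type levels, such as A306_00015279 (-3.38 and -3.62).

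**Figure D2:**
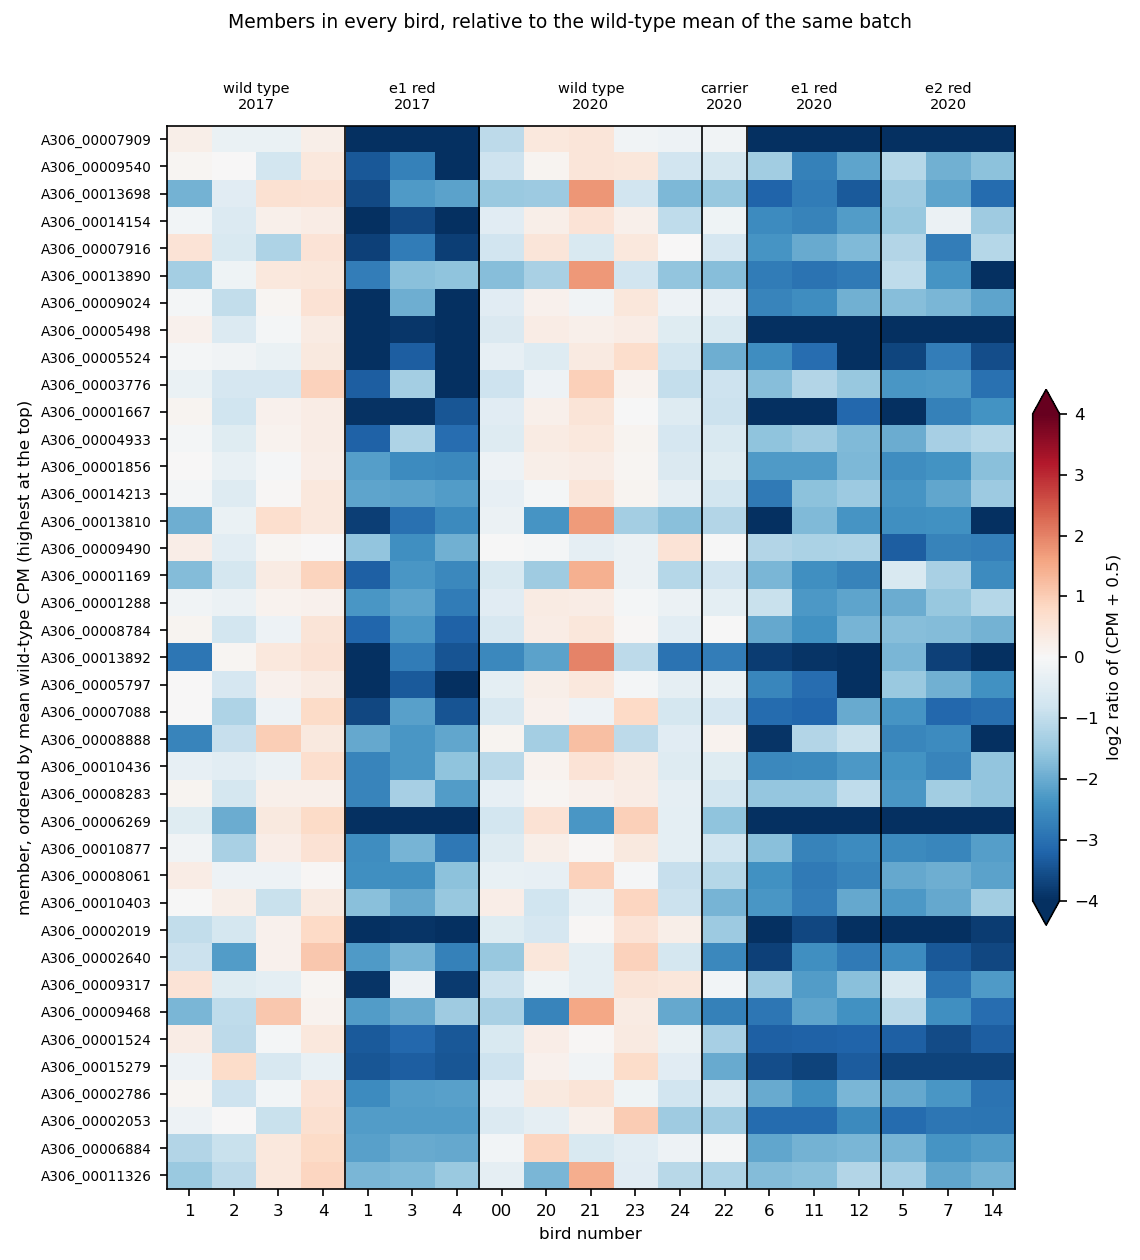
Each line is 1 of the 39 genes and each column is 1 bird, coloured by the log2 of its CPM (with 0.5 CPM added) relative to the wild-type mean of its batch. Values beyond 4 units take the end colours. The recessive red columns are blue for nearly all genes, the wild-type columns vary in either direction, and the carrier is mostly pale blue.

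Among the other abundant genes the part of the wild-type level that was left varied with the gene and the batch. A306_00009540 was at 2073, 1965, 1179 and 2633 CPM in 2017 wild-type birds and at 186, 300.3 and 105 CPM in recessive red birds. In 2020 it was at 835 to 2041 CPM in wild-type birds, at 554, 226 and 339 CPM in e1 and at 672, 388 and 466 CPM in e2 birds. No recessive red bird overlapped wild type in either batch, but the gap narrowed to 672 against 835 CPM in 2020. A306_00007916 was at 388 to 1353 CPM in 2017 wild-type and 67.6 to 132 CPM in recessive red birds. In 2020 its wild-type range was 542 to 1292 CPM and its recessive red range 135 to 420.4 CPM. A306_00009024 ran from 98.8 to 297 CPM in 2017 wild-type birds, and its recessive red birds were at 4.50, 50.5 and 6.37 CPM. In 2017 recessive red bird 3 was the highest of its 3 for 23 of the 39 genes, where it was the highest for 35.8% of all 11752 genes. A306_00003776, at 89.5 to 274 CPM in 2017 wild-type birds, was also highest in bird 3, with 55.1 CPM there and 14 and 8.48 CPM in birds 1 and 4.

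A306_00014154 was the gene just inside the threshold, with log2 differences of -4.25 in 2017 and -1.5 in 2020. A306_00004933 (-2.20 and -1.51), A306_00008283 (-1.95 and -1.52) and A306_00001288 (-2.39 and -1.56) came next. Just outside were A306_00013951 (-2.38 and -1.46), A306_00002531 (-1.59 and -1.45), A306_00005003 (-1.74 and -1.44) and A306_00005446 (-2.51 and -1.42). No gap separates the set from these neighbours. The threshold divides a continuous series of values, and 81 genes meet a threshold of -1 and 23 a threshold of -2.

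**Figure D3:**
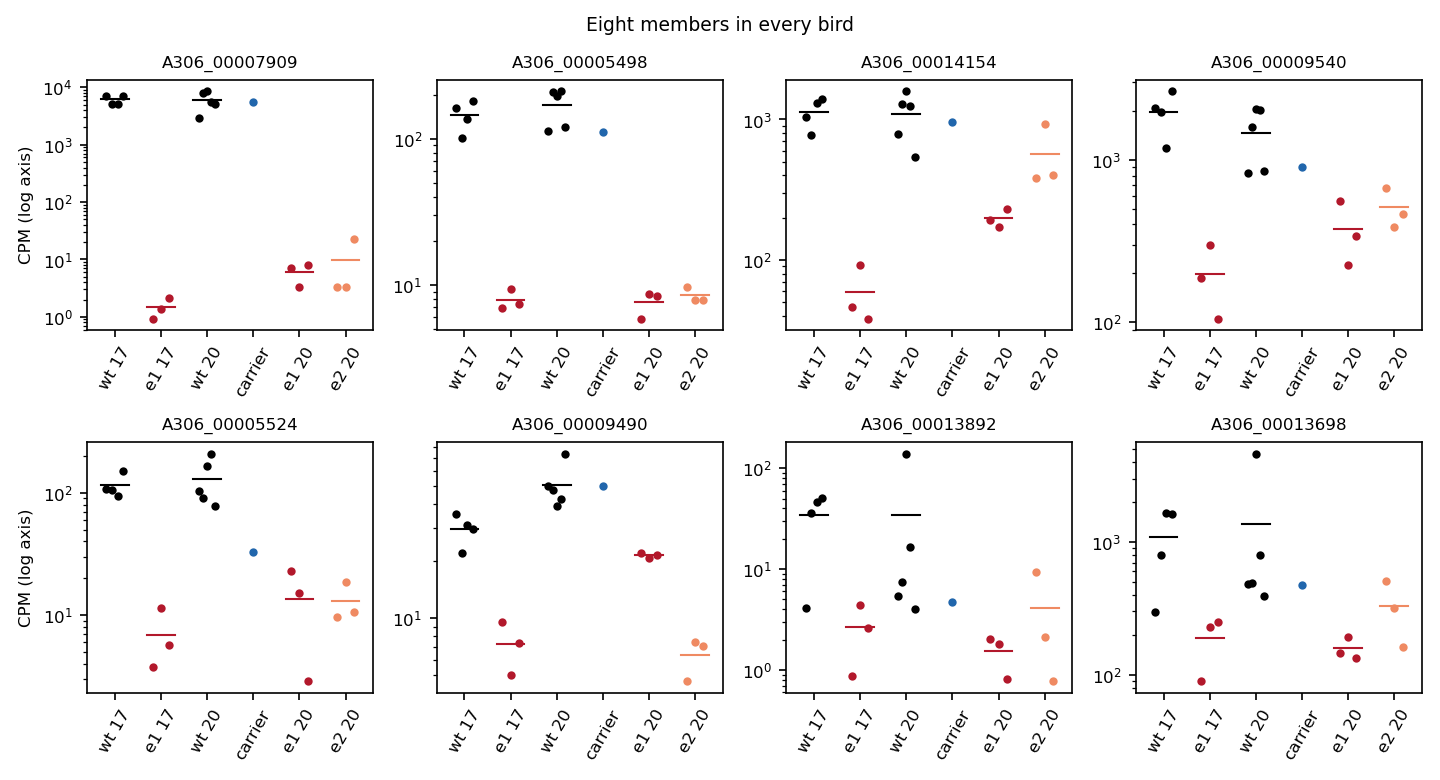
CPM on a log axis for 8 genes of the set, with 1 point per bird, a line at the mean of each group, and the groups along the horizontal axis (wt, wild type; 17 and 20, the years of the batches). A306_00007909 separates wild-type and recessive red birds most widely, and wild-type bird 21 stands above the other 2020 wild-type birds for A306_00013698.

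Wild-type birds themselves differed more for these genes than for genes in general. The median SD of log2 CPM among wild-type birds was 0.59 over the 39 genes in 2017 and 0.60 in 2020, against 0.22 and 0.19 over all 11752 genes. These SDs come from wild-type birds of the rule and are a description. Bird 4 was the highest 2017 wild-type bird for 29 of 39 genes (20.02% of all genes) and bird 2 the lowest for 23 (35.4% of all genes). Bird 21 was the highest 2020 wild-type bird for 21 genes (32.3% of all genes) and bird 23 for 14 (16.4%). Birds 00 and 24 were each the lowest for 15 genes (20.2% and 22.5% of all genes). In 2020 wild-type birds the set took from 0.675% of all counts in bird 00 to 2.04% in bird 21. These shares did not follow the gene counts throughout, with 1.43% in bird 20 and 1.26% in bird 23.

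Bird 21 decided the membership of several genes. For 6 genes, some of them chosen after their values were seen, its level was over 3 times that of every other 2020 wild-type bird, which held for 0.187% of all genes. A306_00013698 was at 4634 CPM in bird 21 and at 482, 493, 799 and 394 CPM in birds 00, 20, 23 and 24, and recessive red birds of 2020 were at 133 to 510.4 CPM. A306_00013890 was at 879 CPM in bird 21 against 80.0 to 154 CPM, and A306_00013892 at 139 CPM against 4.04 to 16.5 CPM. For these genes the 2020 recessive red and wild-type birds overlapped. A306_00013810 (240.2 against 13.8 to 63.1 CPM), A306_00001169 (80.2 against 10.7 to 25.1 CPM) and A306_00011326 (6.71 against 0.248 to 1.58 CPM) were the others. Without bird 21 the rule gives 27 genes, of which 26 are in the set, and the 13 that leave have 2020 differences of -1.49 to -0.80 without it. With each of the 18 birds left out in turn, 25 genes stayed in the set every time. Those 25 had median differences of -2.93 in 2017 and -2.32 in 2020. For 24 of them the phenotypes had no overlap in either batch, beside 0.766% of all 11752 genes. The rule chose these genes on the same contrast, so nothing is read from that count.

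The e1 and e2 alleles were compared in the 2020 birds, in a contrast the rule did not use, since it averaged all 6 recessive red birds. One gene of the set, A306_00009490, was lower in e2 than in e1 birds, and no other gene of the set differed past the threshold. It was at 4.64, 7.45 and 7.10 CPM in the e2 birds and at 22.1, 20.7 and 21.4 CPM in the e1 birds, with wild-type birds at 38.9 to 73.8 CPM and the carrier at 49.8 CPM. The 3 e2 birds were all below the 3 e1 birds, which were all below wild type. In 2017 the e1 birds were at 9.54, 5.01 and 7.42 CPM against 22 to 35.4 CPM in wild-type birds, so those e1 birds were at the level of the 2020 e2 birds. The log2 difference of e2 from e1 was -1.76 ± 0.25 (SE; 95% interval -2.30 to -1.22; edgeR adjusted p = 0.0453). This call was 1 of 39 genes, where 0.0226% of the 13269 genes tested were called in either direction, 0.0151% lower and 0.00754% higher in e2. Without any 1 of the 6 recessive red birds, or of wild-type birds 00, 20, 21 and 23, the adjusted p was 0.0543 to 0.212 and the log2 difference -1.85 to -1.60.

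The balance of directions between the alleles depended on the genes with few counts. With all 39 genes, the log2 difference of e2 from e1 was above 0 for 20 genes and below 0 for 19, with a median of 0.07 (range -3.29 to 1.5), against a median of -0.00 over all genes tested. Of the 39, 8 passed the filter on low counts only in the fit that held wild-type birds, where they are high, and all 8 had differences below 0. When the 6 recessive red birds were fitted without the others, the 31 remaining genes had 20 differences above 0 and 11 below, with a median of 0.34, against 0.01 over all genes in that fit, and 0 of the 31 were called, with an unadjusted p under 0.05 for 5 and for 3.77% of all genes. Before adjustment, 4 of the 39 had an edgeR p under 0.05, of which 2 were higher in e2, beside 6.03% of all genes tested. A306_00014154 was at 381, 930.2 and 404 CPM in e2 birds and at 192, 172 and 230.4 CPM in e1 birds, and its difference of 1.5 ± 0.39 (SE; 95% interval 0.66 to 2.35) had an edgeR adjusted p of 0.599. With DESeq2 this gene had an adjusted p of 0.0398. Every e2 bird was above every e1 bird for 3 genes, A306_00014154, A306_00005797 and A306_00008061, and below for 3, A306_00009490, A306_00003776 and A306_00001524, where 3.76% and 3.2% of all genes had such orders. The order of A306_00001524 rests on 2 counts in each e1 bird and on 2, 0 and 2 counts in e2 birds 5, 7 and 14. Where the counts are equal, its order follows the total counts of the birds. This gene is among the 8 that passed the filter only with wild-type birds, so nothing is read from its order. For 7 of 39 genes the 95% interval held no difference of 1 log2 unit or more, and for 32 it did, so a 2-fold difference between the alleles was within the error for most of the set. Over the set's summed counts, the e2 birds took 0.176% to 0.238% of all counts and the e1 birds 0.114% to 0.137%. That sum is carried by the few most abundant genes, among them A306_00014154, A306_00009540 and A306_00013698.

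**Figure D4:**
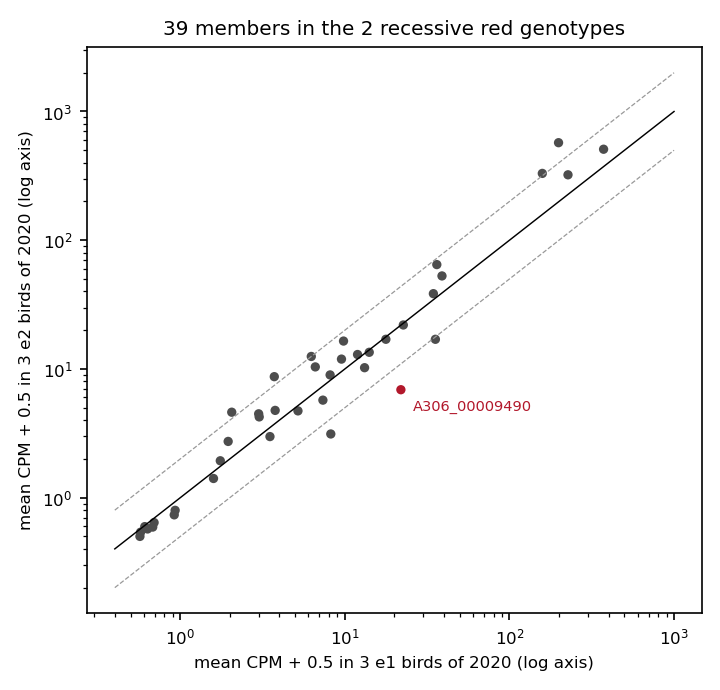
Each point is 1 of the 39 genes, placed by its mean CPM plus 0.5 in the 3 e1 birds (horizontal log axis) and in the 3 e2 birds of 2020 (vertical log axis). The solid line marks equal levels and the dashed lines a 2-fold difference; the genes lie on both sides, and A306_00009490 (red) is the gene called, at a log2 difference of -1.76.

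The same genotype was sampled in both batches, and the levels of the set in e1 birds were compared between them, where batch, year and the birds themselves cannot be told apart. The rule had used these values, and unequally: its threshold stood on the mean of the 2017 e1 birds alone, and on the 2020 e1 birds only in an average with the e2 birds. The comparison is therefore not independent of how the genes were chosen, and its calls are listed as a description. Levels in the e1 birds of 2020 were above those of 2017 for A306_00009490 and A306_00014154. A306_00014154 was at 46.1, 92.2 and 38.1 CPM in 2017 and at 192, 172 and 230.4 CPM in 2020, without overlap, and its log2 difference was 1.66 ± 0.32 (SE; edgeR adjusted p = 0.0455). For A306_00009490, with the values given above, it was 1.47 ± 0.25 (SE; edgeR adjusted p = 0.0423). These 2 genes were the calls among the 31 of 39 that passed the filter on low counts, and 1.01% of the 12621 genes tested were called higher. Neither passed without 2017 bird 1 or 4, or without 2020 bird 11 or 12 (adjusted p 0.104 to 0.160). Without 2017 bird 3, 6 genes of the set were called higher, where 181 of all 12772 genes were. Without 2020 bird 6 the number was also 6, where 528 of all 12754 genes were called higher. DESeq2 called 7 genes of the set higher and 1 lower, where it called 722 higher and 567 lower of all 12621 genes.

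Among genes that missed the threshold, A306_00007909 had a difference of 1.98 ± 0.43 (SE; edgeR adjusted p = 0.0554), with 3.38 to 7.89 CPM in 2020 against 0.921 to 2.11 CPM in 2017. A306_00007916 had a difference of 1.24 ± 0.27 (SE; adjusted p = 0.0557), and A306_00013890 one of -1.09 ± 0.27 (SE; adjusted p = 0.0715). With no filter, 30 of the 39 differences were above 0 and 9 below, beside 50.5% above 0 over all genes, and the median was 0.79 beside 0.01. In that fit 2 of the 39 were called higher, beside 0.908% of all genes. Each 2020 e1 bird was above each 2017 e1 bird for 9 genes (17.9% of all genes) and below for 1 (11.1%). The interval of the difference was within 1 log2 unit of 0 for 3 of the 31 genes.

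Homozygous wild-type birds were compared between the batches in the same way, and 4 genes of the set were called. The rule used the wild-type means of each batch as reference, so this comparison is not fully independent of it. Of the 39 genes 4 were called, 3 higher and 1 lower in 2020, where 31.7% of the 12573 genes tested were called, 15% higher and 16.7% lower. A306_00001667 was higher by 0.84 ± 0.24 (SE; edgeR adjusted p = 0.0222), A306_00009490 by 0.61 ± 0.19 (adjusted p = 0.0289) and A306_00008061 by 0.96 ± 0.31 (adjusted p = 0.0366). A306_00009317 was lower, at 16.5, 7.82, 8.4 and 12 CPM in 2017 and 2.71, 4.72, 3.96, 7.86 and 7.41 CPM in 2020, with a difference of -1.22 ± 0.32 (SE; edgeR adjusted p = 0.0136). The batches overlapped only at 7.82 and 7.86 CPM for this gene. The median difference over the set was 0.05, with 22 genes above 0 and 17 below, against 0.00 over all genes. The larger spread among wild-type birds for these genes, given above, lies beside these counts, and its part in them was not tested. The number called was 1 without 2017 wild-type bird 2, 2 without 2017 wild-type bird 3 and 7 without 2020 wild-type bird 21, of which 4 were lower. Over all genes, those fits called 1673 lower and 1396 higher of 12664, 1902 and 1627 of 12645, and 1782 and 1896 of 12504. The set's median was -0.04 without 2017 bird 2 and -0.02 without 2020 bird 21, on the other side of 0 from the value with all birds. The difference between the change in e1 birds and the change in wild-type birds was not tested.

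The carrier was not used by the rule and is a single bird, so its values are given with no test. Its reference, the mean of the 2020 wild-type birds, did enter the rule. Genes were chosen where that mean was high against recessive red birds, so ratios to it are not independent of the choice. The carrier had less of most transcripts of the set than the mean of the 5 wild-type birds of 2020. It was below the wild-type mean for 38 of 39 genes, as it was for 44.4% of all 11752 genes. Its median log2 ratio to the wild-type mean was -0.75 over the set (range -2.75 to 0.15) and 0.02 over all genes, and its level had a median of 58.5% of the wild-type mean. It was below every wild-type bird for 15 genes, where this held for 7.97% of all genes, and at least 1 log2 unit below the wild-type mean for 15, where this held for 0.536%. It was above every recessive red bird of 2020 for 31 genes, which held for 13.1% of all genes. For the other 8 it was at or below the highest recessive red bird. Nothing is read from those counts, as the rule chose low recessive red values. The set took 0.934% of the carrier's counts.

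Wild-type birds 00 and 24 also stood low over the set, with medians less negative than that of the carrier. Both entered the wild-type mean that had to be high for a gene to be chosen, and the carrier did not. The comparison is therefore uneven, and no ranking of the birds is read from it. Set against the other 4 wild-type birds of 2020, bird 00 had a median log2 ratio of -0.63 over the set and bird 24 of -0.62. Birds 20, 21 and 23 had medians of 0.17, 0.54 and 0.20. Each of these 2 birds was below the other 4 for 15 genes (20.2% of all genes for bird 00 and 22.5% for bird 24). The carrier was below all 5 for 15 genes (7.97% of all genes). Against the same 4 birds it was below all for 18 genes without bird 00 and for 22 without bird 24. Birds 00 and 24 were at least 1 log2 unit below the mean of the others for 8 and 12 genes (0.893% and 0.817% of all genes). The carrier was so against the mean of all 5 for 15 (0.536% of all genes). Bird 00 was below the mean of the other 4 for 37 genes of the set and bird 24 for 35 (54.5% and 53.6% of all genes). The carrier was below its reference mean for 38 (44.4% of all genes). For birds 20, 21 and 23 this count was 17, 10 and 15 genes (49.1%, 42.8% and 59.9% of all genes). The carrier's median lay below those of the 2 lowest wild-type birds, an order from which nothing is read. Against the same 4 birds as reference it was -0.86 beside -0.63 for bird 00, and -0.85 beside -0.62 for bird 24. A single carrier gives no measure of the spread among carriers. Its median was -0.63 with the median wild-type bird as reference, and -0.86 to -0.48 with each wild-type bird left out in turn.

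**Figure D5:**
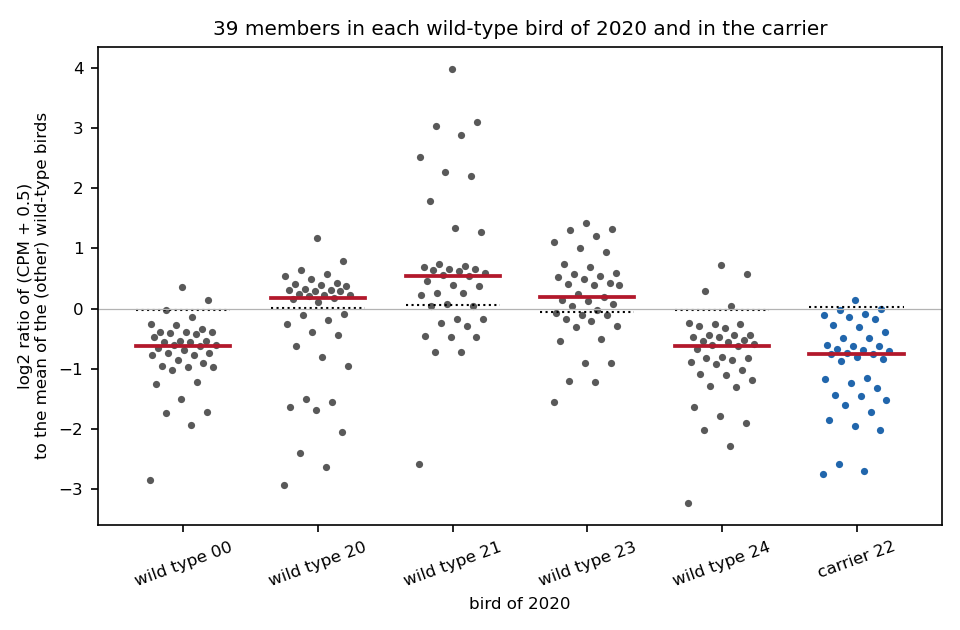
Log2 ratio of the CPM (plus 0.5) of each of the 39 genes (points) in the carrier to the mean of the 5 wild-type birds of 2020, and in each wild-type bird to the mean of the other 4. Red lines mark the medians over the set and dotted lines those over all genes. The carrier's median of -0.75 lies below those of birds 00 (-0.63) and 24 (-0.62), which have a reference of 4 birds and not 5. The wild-type birds entered the rule and the carrier did not.

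The lowest ratio of the set, -2.75, was that of A306_00013892, at 4.70 CPM in the carrier and within its wild-type range of 4.04 to 139 CPM, with a mean that rests on bird 21. The genes that follow had the carrier below every wild-type bird. A306_00009468 was at 1.13 CPM in the carrier, and at 3.78, 1.18, 30.6, 12.7 and 2.08 CPM in the wild-type birds, so that its mean rests on birds 21 and 23. A306_00002640 was at 1.5 CPM in the carrier against 3.72 to 22.5 CPM in wild-type birds and 0.405 to 1.69 CPM in recessive red birds. A306_00015279 was at 1.13 CPM against 3.21 to 10.5 CPM, with recessive red birds at 0 to 0.147 CPM. A306_00005524 was at 33.0 CPM against 78.1 to 209 CPM in wild-type and 2.88 to 22.8 CPM in recessive red birds, and so lay between the phenotypes with no overlap. A306_00010403 was at 3.76 CPM against 7.91 to 27.4 CPM in wild-type birds, within the 1.76 to 5.34 CPM of recessive red birds. A306_00013890, at 79.3 CPM, was just under the lowest wild-type bird at 80.0 CPM, and its ratio rests on bird 21. In contrast, A306_00007909 was at 5449 CPM in the carrier, inside the wild-type range of 2940 to 8498 CPM, and A306_00009490 at 49.8 CPM was inside its wild-type range of 38.9 to 73.8 CPM. For the 25 genes that no single bird decided, the carrier was below the wild-type mean for 25, beside 44.4% of all genes. It was below every wild-type bird for 12, beside 7.97% of all genes, and its median was -0.71.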

How the data were processed

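The authors deposited raw counts per gene for 19 birds, headed Cliv2.1 per the file headers. Beside them the authors deposited the results of DESeq2, per the file headers: log2 fold changes, p-values, a mean signal of scaled counts and a test score. The aligner, the counting program, the use of strand and the DESeq2 version were not given in the sources used here. Birds of a group are separate animals, as far as the bird numbers in the labels tell, and the lowest chi-square per degree of freedom between birds of a group was 18.8.

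CPM was computed from the deposited counts and the column totals. Comparisons used edgeR 4.0.16 in R 4.3.3 with filterByExpr, TMM scaling and the quasi-likelihood test, and p-values were adjusted over all genes tested (Benjamini-Hochberg). A gene was called at an adjusted p under 0.05. The all-bird fit counted the carrier as wild type. The standard error is the log2 difference over the square root of F. The fits were tested on simulated counts, with 100 genes changed 2-fold and 100 changed 4-fold. The fit of e2 against e1 recovered 35% and 86% of them. The fits of e1 batches, wild-type batches and all birds recovered 46% and 87%, 65% and 94%, and 84% and 99%. In the same order of the 4 fits, 7.63%, 8.28%, 5.92% and 3.17% of the calls were false. The changed genes were drawn at random from all genes fitted, with mean levels taken over all birds of the fit. The shares recovered are therefore not those for genes of the set. DESeq2 1.42.0, other scalings and filters, and each bird left out were tried. Intervals of count ratios (95%) and floors of 3 counts cover counting error only.

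The 39 genes, the gene lists and the tests were chosen with earlier results of these data known. Named are the 12 genes with the most counts, the 10 with the lowest mean difference, those called between alleles or batches, those nearest the threshold, up to 6 with the lowest carrier ratio among those where the carrier was below every wild-type bird, and up to 6 with at most 3 counts in a recessive red group. No sequence or position is printed, since no identifier matched.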

Additional observations from a re-analysis of the deposited data

Results flagged for a closer look

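Of 87 groups of 4 to 6 birds checked for a bird far from the others (Dixon's test), 12 had one. Chance gives about 1 in 20 only for independent, normally distributed values. Here CPM was tested, the same birds recur across genes, and the recessive red group of 2020 holds both alleles. The 12 are therefore not read against that rate. In 2017 wild-type birds, A306_00003776 was at 274 CPM in bird 4 and 89.5 to 120 CPM in the others, and A306_00008283 at 9.74 CPM in bird 2 and 17.7 to 19 CPM in the others. In 2020 wild-type birds, bird 21 was far above the rest for A306_00013698 (4634 against 394 to 799 CPM), A306_00013890 (879 against 80.0 to 154 CPM) and A306_00013892 (139 against 4.04 to 16.5 CPM).

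Among the 6 recessive red birds of 2020, bird 5 was high for A306_00013890 (129 against 13.7 to 50.1 CPM), A306_00013892 (9.45 against 0.777 to 2.11 CPM) and A306_00009468 (4.48 against 0.777 to 1.96 CPM). A306_00013890 and A306_00013892 were thus far from the rest in a bird of each phenotype. Bird 7 was high for A306_00014154 (930.2 against 172 to 404 CPM) and at 0 CPM for A306_00001524 (0.104 to 0.147 CPM in the others). Bird 14 was high for A306_00007909 (23.1 against 3.26 to 7.89 CPM), and bird 12 for A306_00002053 (0.221 against 0 to 0.0659 CPM). The values of A306_00001524 and A306_00002053 rest on a few counts.

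A306_00009490 was called between the alleles, with a log2 difference of e2 from e1 of -1.76 (edgeR adjusted p = 0.0453). It missed the threshold with upper-quartile scaling (edgeR adjusted p = 0.0618) and with the 6 recessive red birds only (0.322). Without any 1 of those 6 birds it also missed it (edgeR adjusted p 0.139 to 0.212).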

How the results depend on the processing

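The rule gave 81 genes at a threshold of -1 (39 shared with the set), 23 at -2, and 27 to 44 with each bird left out. It gave 46 genes with 0.1 CPM added to each mean (39 shared) and 33 with 1 CPM added. In the all-bird fit, 21 genes of the set were called lower with the 2017 birds only (58 of all 12693 genes). With each bird left out 36 to 39 were, beside 245 to 484 called lower over all genes. Between e2 and e1 the calls were 0 with upper-quartile scaling and 2 with DESeq2 (1 in each direction). They were 0 with the 6 recessive red birds only and 0 to 1 with each bird left out. Over all 13269 genes, upper-quartile scaling called 1 higher and 0 lower, and DESeq2 13 higher and 14 lower. The fit of the 6 recessive red birds called 0 of 12535 genes. With each bird left out, 0 to 1 genes were called higher and 0 to 2 lower over all genes. Between wild-type batches the calls in the set were 2 with all 19 birds in one fit and 1 to 7 with each bird left out. Over all genes, the one fit called 1807 lower and 1612 higher of 13420. The fits with a bird left out called 1575 to 1998 lower and 1396 to 1961 higher. Between e1 batches the calls in the set were 8 with DESeq2 and 0 to 6 with each bird left out. Over all genes, those fits with a bird left out called 0 to 633 lower and 1 to 528 higher. The number called over all genes also changed with these settings, and with DESeq2 it was 722 higher and 567 lower of 12621 between e1 batches. The carrier was below every wild-type bird for 15 to 22 genes over 6 alternatives. No called gene reversed its direction under the settings tried. The set's median difference did change sign: between the alleles it was 0.07 with all birds and -0.01 without e2 bird 14 (18 genes above 0, 21 below), and between wild-type batches it was 0.05 with all birds, -0.04 without 2017 bird 2 and -0.02 without 2020 bird 21. The cause of these shifts was not tested. Groups of 3 birds limit the comparisons of alleles and of e1 batches, and low counts limit 6 genes in the stricter filter, which tested 33 of 39 in all birds.

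Birds of 2017 share numbers across phenotypes, but same-numbered birds did not deviate together (correlations -0.19, -0.08 and -0.13). These values give no sign that the numbers pair the birds, though so few pairs cannot exclude it. With bird number as a replicate block 39 genes were called lower, as without it, a count that the choice of the genes fixes. Over all 12839 genes, 389 were called lower and 296 higher with the block, against 331 and 211 without it. No paired analysis was possible between alleles or batches because bird numbers shared there were too few or none. The median wild-type bird as reference for the carrier was chosen after seeing the data.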
